A study of Mus musculus and Rattus norvegicus with 14 samples.

Results

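The 9 genes described here encode components, regulators and receptors of complement, the system of serum proteins that marks microbes and damaged cells for removal: C1ra, C4b, C3, Cfb, Cfp, C7, Serping1, C3ar1 and C5ar1. They were selected by gene name, from a list drawn up with earlier results of these data known, and all 9 had a row among the 54532 genes of the mouse table. In the rat table of 33600 genes, 8 of the 9 names were found, on 9 gene identifiers, and C1ra had no row. The mouse samples were hearts of 4 groups with 3 libraries each, labelled LQ-40, SQ-3, Model and Sham. LQ-40 and SQ-3 are compounds that the design text calls structurally similar and that were examined for their effect on myocardial fibrosis, the scarring of heart muscle. The labels give no dose, time, strain, age or procedure, do not say that hearts of the compound groups also underwent the Model procedure, and do not say that libraries came from separate animals, so p-values measure the spread between these libraries. The rat samples were 1 library of primary cells in a 3D co-culture, namely heart muscle cells, heart fibroblasts and macrophages grown from bone marrow, named in the design text as 3D-OGD-MF, and 1 library of the same cell types grown in 2D and mixed in equal parts. Culture form and growing cells together or mixing them thus differ at once between the rat libraries. So would any treatment in the name 3D-OGD-MF, and these cannot be told apart.

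Complement runs as a cascade of proteases. The classical pathway starts when C1q binds a target, its protease C1r is activated first and its protease C1s then cuts C4. The alternative pathway amplifies the response through C3, factor B and properdin. Both pathways end in the terminal proteins that assemble a pore in membranes. The liver makes most circulating complement, but fibroblasts, macrophages and endothelial cells of many tissues, the heart among them, also transcribe complement genes, and the fragments C3a and C5a attract and activate myeloid cells through the receptors encoded by C3ar1 and C5ar1.

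The deposited values were FPKM, read counts divided by gene length and by library size. They were divided by 1 factor per library to bring the libraries to a common scale, and the results are called scaled FPKM. Between 13085370 and 16698987 reads per mouse library were assigned to genes. The 12996 genes with 1 FPKM or more in 3 or more of the 12 libraries were tested with limma. A gene is called where its Benjamini-Hochberg adjusted p over those genes was under 0.05, and fold changes were taken from log2(scaled FPKM + 1), so that those of genes with low values come out too small. Of the 9 genes, 8 passed the filter and Cfb did not. The first principal component, which held 53.4% of the variance, placed the Model libraries between -36.2 and -26.3, the Sham libraries between 43.7 and 52.5, the SQ-3 libraries between -17.7 and -0.22, and the LQ-40 libraries at 20.6, -16.0 and -34.3. LQ-40 library 1 thus lay nearest to Sham of all compound libraries, and LQ-40 library 3 within the Model range. Mitochondrial transcripts took 11.1 to 21.2% of reads in LQ-40, 15.2 to 20.1% in SQ-3, 10.8 to 15.3% in Model and 14.6 to 23.6% in Sham libraries.

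Promoter sequences are shown for the 4 members in which a searched transcription factor motif was found, namely C3, C7, C1ra and C5ar1. Windows from 250 bases before to 50 bases after the start of the gene were taken from RefSeq (GRCm38.p6, the same assembly as mm10) and matched for 6 of the 9 genes, the others of which are Cfp and C3ar1; C4b, Serping1 and Cfb are named only. The motifs searched on both strands were GAAANNGAA, the core of the interferon-stimulated response element, TTCNNNGAA, a core bound by STAT factors, GGGNNTTCC, an NF-kB core, and TTGCGNAA, a C/EBP core. Each sequence runs 5′ to 3′ along the strand of its gene, and capitals mark the matched motif.
C3 (chr17:57228087-57228386, minus strand): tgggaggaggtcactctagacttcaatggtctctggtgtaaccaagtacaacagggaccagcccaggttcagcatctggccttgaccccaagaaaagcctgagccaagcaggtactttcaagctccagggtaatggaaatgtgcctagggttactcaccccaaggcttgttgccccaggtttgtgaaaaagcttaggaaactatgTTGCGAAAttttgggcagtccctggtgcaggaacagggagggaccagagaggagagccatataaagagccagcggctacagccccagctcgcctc
C7 (chr15:5063724-5064023, minus strand): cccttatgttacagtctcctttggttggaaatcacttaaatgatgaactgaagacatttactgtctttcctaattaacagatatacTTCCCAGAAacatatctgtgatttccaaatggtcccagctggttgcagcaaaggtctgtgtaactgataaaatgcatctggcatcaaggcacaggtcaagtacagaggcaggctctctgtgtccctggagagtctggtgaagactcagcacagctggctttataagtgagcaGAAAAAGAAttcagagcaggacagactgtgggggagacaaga
C1ra (chr6:124512371-124512670, plus strand): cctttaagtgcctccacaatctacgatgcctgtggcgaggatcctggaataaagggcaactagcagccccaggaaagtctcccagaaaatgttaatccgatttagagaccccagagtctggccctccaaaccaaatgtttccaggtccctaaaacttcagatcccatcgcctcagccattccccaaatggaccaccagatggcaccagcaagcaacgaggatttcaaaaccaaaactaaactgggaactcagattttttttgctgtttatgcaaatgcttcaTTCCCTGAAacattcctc
C5ar1 (chr7:16259289-16259588, minus strand): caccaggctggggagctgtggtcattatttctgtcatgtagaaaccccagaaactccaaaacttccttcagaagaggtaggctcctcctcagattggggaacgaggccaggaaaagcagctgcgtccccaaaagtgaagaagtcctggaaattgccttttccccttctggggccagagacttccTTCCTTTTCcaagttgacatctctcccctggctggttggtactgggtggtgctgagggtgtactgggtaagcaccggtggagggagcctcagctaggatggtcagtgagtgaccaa
In C3 the capitals are the C/EBP core, which starts 45 bases before the RefSeq start. In C7 they are the STAT core, 164 bases before the start, and the interferon core, which begins at base 9 counting the start as base 1. In C1ra they are the STAT core, which begins at base 33, where the RefSeq start lies 216 bases inside the gene's end in the deposited coordinates. In C5ar1 they are the interferon core read on the opposite strand, beginning 66 bases before a RefSeq start that lies 202 bases from the deposited end. The windows of Cfp and C3ar1 held none of the searched motifs, and no member's window held the NF-kB core. Among 32851 mouse windows of the same length, the C/EBP core occurred in 0.798%, the STAT core in 8.3%, the interferon core in 8.56% and the NF-kB core in 5.82%. Among the 11900 windows of tested genes these shares were 1.23% for the C/EBP, 6.65% for the STAT, 7.28% for the interferon and 7.28% for the NF-kB core. A match is a run of letters in the window and was not tested for binding. The share of windows with any of the motifs was not counted. Whether a motif goes with the differences between groups was not tested, and C4b and Serping1 had no window to search.

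The first comparison asked how the 9 genes differed between Model and Sham hearts. Of the 8 tested, 6 were called higher in Model hearts (C3, C4b, C7, C1ra, Serping1 and C5ar1) and none lower, where 38.8% of all tested genes were called and 20.9% were called higher. The fold changes of those 6 genes lay between 2.17 for C5ar1 and 4.72 for C3. The median log2 difference was 1.32 over the 8 tested members and 0.03 over all tested genes. The libraries of Model and Sham hearts did not overlap for 7 of the 8 members, all higher in Model, which was also true of 29.8% of all tested genes.

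**Figure D1:**
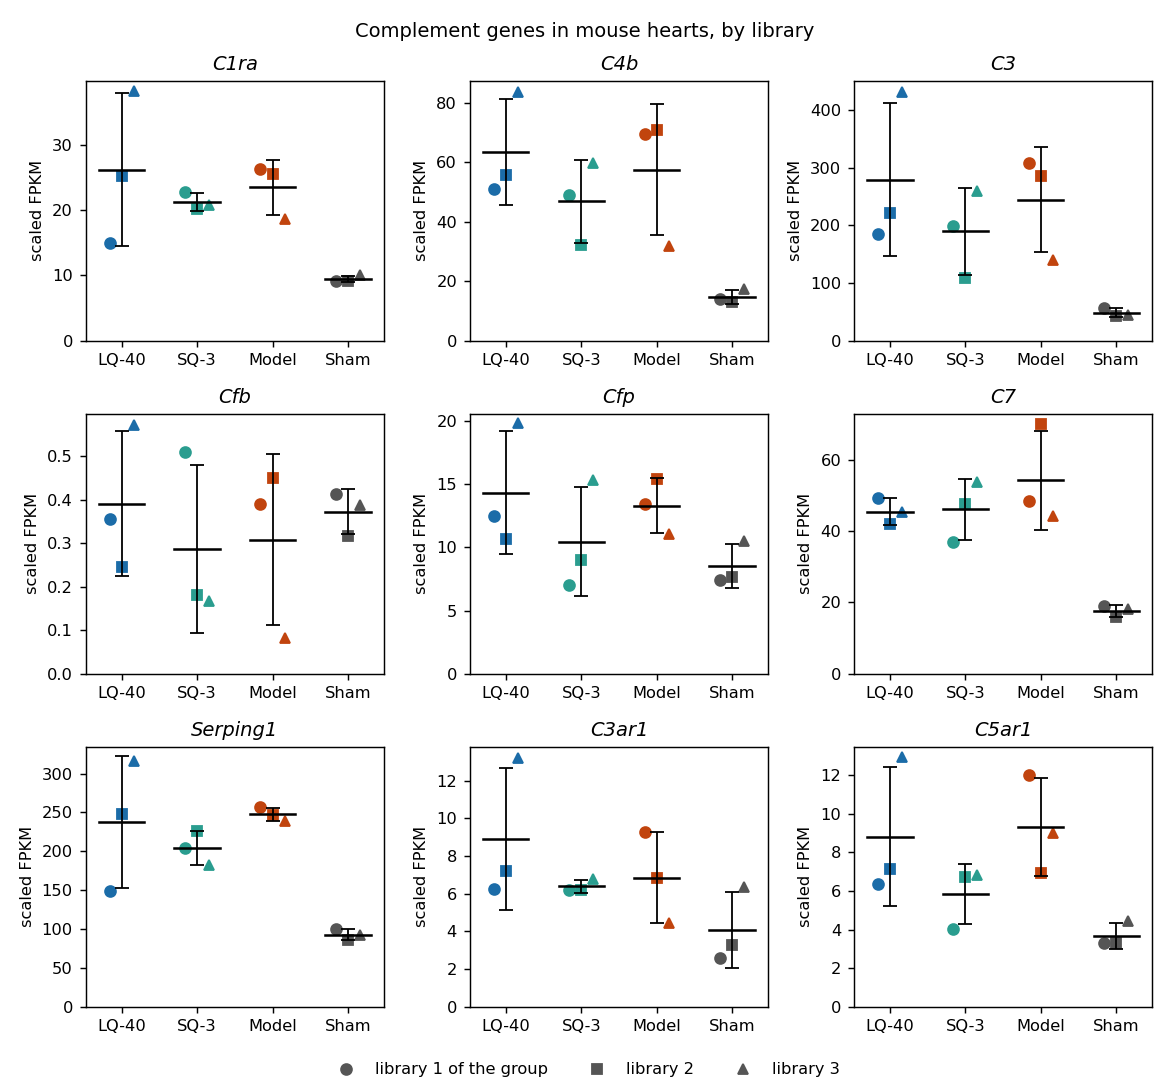
Scaled FPKM (vertical axis, starting at 0) of the 9 complement genes in each mouse library, with 1 panel per gene, marker shapes for libraries 1 to 3 of a group, a line for the group mean and bars for the SD (n = 3). All libraries of the LQ-40, SQ-3 and Model groups lie above all Sham libraries for C3, C4b, C7, C1ra and Serping1, whereas Cfb is at most 0.572 in every library. Of all tested genes, 29.8% had all Model and 20.2% all SQ-3 libraries above all Sham libraries. The share with all of these groups above Sham was not counted.

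C1ra, a mouse gene for the protease C1r that is activated first in the classical pathway (chromosome 6, 124512405 to 124523443, mm10), had 15.02, 25.3 and 38.4 scaled FPKM in LQ-40 hearts, 22.9, 20.2 and 20.8 in SQ-3 hearts, 26.4, 25.6 and 18.7 in Model hearts, and 9.20, 9.12 and 10.02 in Sham hearts. Every LQ-40, SQ-3 and Model library lay above every Sham library, and the LQ-40 libraries spread over a wider range than those of the other groups. C1ra was 2.33-fold higher in Model than in Sham hearts (log2 difference 1.22, SE 0.26, adjusted p = 0.00551). Its near copy C1rb shares 34.5% of the distinct 100-base stretches of the C1ra transcript, so some of its reads could have been assigned to either gene, and how reads with several matches were counted is not given in the sources used here.

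C4b, the mouse C4 gene whose product is cut by C1s and attaches to target surfaces (chromosome 17, 34728380 to 34743882), had 50.9, 55.8 and 83.8 scaled FPKM in LQ-40 hearts, 49, 32.1 and 59.8 in SQ-3 hearts, 69.6, 71.0 and 32.0 in Model hearts, and 13.9, 13.0 and 17.4 in Sham hearts. The lowest library outside the Sham group, Model 3, was still above the highest Sham library. C4b was 3.52-fold higher in Model than in Sham hearts (log2 difference 1.82, SE 0.32, adjusted p = 0.00257). It shares 15.2% of its 100-base stretches with C4a, which was at most 0.270 scaled FPKM in every library.

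C3, the protein at which all activation pathways meet (chromosome 17, 57203970 to 57228136), had 186, 222 and 431.5 scaled FPKM in LQ-40 hearts, 199.9, 109 and 260.1 in SQ-3 hearts, 308.5, 286 and 140.1 in Model hearts, and 57.4, 43.4 and 45.1 in Sham hearts. Among the tested members it had the highest fold change, 4.72-fold higher in Model than in Sham hearts (log2 difference 2.24, SE 0.41, adjusted p = 0.00278), and also the largest spread within groups. Ranked by mean scaled FPKM among all genes of the mouse table, C3 stood at place 120 in LQ-40, 203 in SQ-3, 124 in Model and 874 in Sham hearts. Without Model library 3, the lowest of the group, the log2 difference was 2.60 (adjusted p = 0.0037).

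The other members of the alternative pathway had lower levels than C3. Cfp encodes properdin, which stabilises the C3 convertase and comes mainly from leukocytes (chromosome X, 20925454 to 20931555), and had 12.4, 10.7 and 19.9 scaled FPKM in LQ-40 hearts, 7.04, 9.01 and 15.3 in SQ-3 hearts, 13.5, 15.4 and 11.03 in Model hearts, and 7.40, 7.66 and 10.52 in Sham hearts. All Model libraries were above all Sham libraries, yet the difference was not called (log2 0.59, SE 0.27, 95% interval -0.0171 to 1.19, adjusted p = 0.111). Fitted to Model and Sham libraries alone, without the other groups, it passed at adjusted p = 0.0268. Cfb encodes factor B, the protease of the alternative pathway (chromosome 17, 34856374 to 34862518), and had 0.355, 0.245 and 0.572 scaled FPKM in LQ-40 hearts, 0.510, 0.182 and 0.167 in SQ-3 hearts, 0.391, 0.45 and 0.0829 in Model hearts, and 0.414, 0.315 and 0.389 in Sham hearts. These values rest on 4 to 26 reads per library, no group stood apart from another, and Cfb was not tested. The predicted gene Gm20547 covers 6107 bases of Cfb on the same strand and shares 66.9% of its 100-base stretches, so reads that match both cannot be assigned to 1 of them and the level of Cfb is uncertain.

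C7, a terminal component that anchors the membrane attack complex (chromosome 15, 4988762 to 5063740), had 49.3, 41.8 and 45.2 scaled FPKM in LQ-40 hearts, 36.9, 47.4 and 53.7 in SQ-3 hearts, 48.4, 70.0 and 44.1 in Model hearts, and 19.0, 15.8 and 18.1 in Sham hearts. The libraries of the 3 other groups stood well above the Sham libraries, which lay close together. C7 was 2.91-fold higher in Model than in Sham hearts (log2 difference 1.54, SE 0.18, adjusted p = 0.000411), and it had the smallest adjusted p of the members in each comparison with Sham. Of the other terminal genes (Hc, which encodes C5, and C6, C8a, C8b, C8g and C9), only C8g passed the filter, at 1.02 to 1.30 scaled FPKM in Model hearts and 1.16 to 2.35 in Sham hearts, and it was not called.

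Serping1 encodes C1 inhibitor, which inactivates C1r and C1s (chromosome 2, 84765387 to 84775444), and had 149, 248 and 317 scaled FPKM in LQ-40 hearts, 204, 226 and 182 in SQ-3 hearts, 256, 246.5 and 239 in Model hearts, and 99.4, 85.4 and 92.7 in Sham hearts. The Model libraries agreed closely, and all lay above the Sham libraries. Serping1 was 2.66-fold higher in Model than in Sham hearts (log2 difference 1.41, SE 0.23, adjusted p = 0.00177). Together C3 and Serping1 made up 67.2 to 77.8% of the summed scaled FPKM of the 9 genes in every library.

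By group mean the receptors had lower levels than the other tested members. C5ar1, the receptor of C5a (chromosome 7, 16246743 to 16259540), had 6.34, 7.16 and 13.0 scaled FPKM in LQ-40 hearts, 4.05, 6.71 and 6.81 in SQ-3 hearts, 11.99, 6.95 and 9.002 in Model hearts, and 3.30, 3.29 and 4.45 in Sham hearts. It was 2.17-fold higher in Model than in Sham hearts (log2 difference 1.12, SE 0.27, adjusted p = 0.00857), with no overlap of libraries. C3ar1, the receptor of C3a (chromosome 6, 122847138 to 122856161), had 6.28, 7.21 and 13.2 scaled FPKM in LQ-40 hearts, 6.19, 6.19 and 6.81 in SQ-3 hearts, 9.29, 6.82 and 4.46 in Model hearts, and 2.59, 3.26 and 6.36 in Sham hearts. For this receptor the Model and Sham libraries overlapped, because Sham library 3 was above Model library 3, and the difference was not called (log2 0.66, SE 0.31, adjusted p = 0.119). Without Sham library 3 it was called, with a log2 difference of 0.96 and an adjusted p of 0.0336.

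The rest of the complement system was followed through 38 other genes, of which 23 passed the filter, 12 stayed under 1 scaled FPKM in every library and 3 of those 12 had no read at all. In Model against Sham hearts 9 of the 23 were called higher and 2 lower, where 20.9% of all tested genes were called higher and 17.9% lower. The median log2 difference of the 23 was 0.62, against 0.03 over all tested genes. Of 10 tested genes of initiation, 3 were called higher: C1s1 and C1s2, which encode the protease C1s, at log2 1.25 (adjusted p = 0.00601) and 1.30 (adjusted p = 0.00826), and C1qb, a chain of C1q, at log2 0.66 (adjusted p = 0.0485). The other C1q chains had nearly the same log2 differences, 0.65 for C1qa and 0.63 for C1qc, and were not called (adjusted p = 0.0633 and 0.0547). Of 7 tested regulators, 3 were called higher and 2 lower. Cfi, factor I, which cuts C3b and C4b, averaged 3.54 ± 0.594 scaled FPKM in Model hearts (SD, n = 3), while the 3 Sham libraries held 5, 1 and 0 reads (adjusted p = 0.00301). Clu, which encodes clusterin, an inhibitor of the membrane attack complex, was 3.20-fold higher (adjusted p = 0.00336), and Cd55, a membrane-bound inhibitor of the C3 convertase, was 2.28-fold higher (adjusted p = 0.00592). The regulators called lower were Cd59a, a membrane-bound inhibitor of pore assembly (22.26 ± 3.503 scaled FPKM over Model and 34.2 ± 2.79 over Sham libraries, SD, n = 3 each, log2 -0.61, adjusted p = 0.00883), and Vtn, vitronectin (log2 -0.49, adjusted p = 0.0449), for which the libraries overlapped. Among the receptors, the integrin chains Itgam, Itgax and Itgb2, which form complement receptors 3 and 4, were all called higher, at log2 0.62, 0.83 and 0.95 (adjusted p = 0.0411, 0.0478 and 0.0223).

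**Figure D2:**
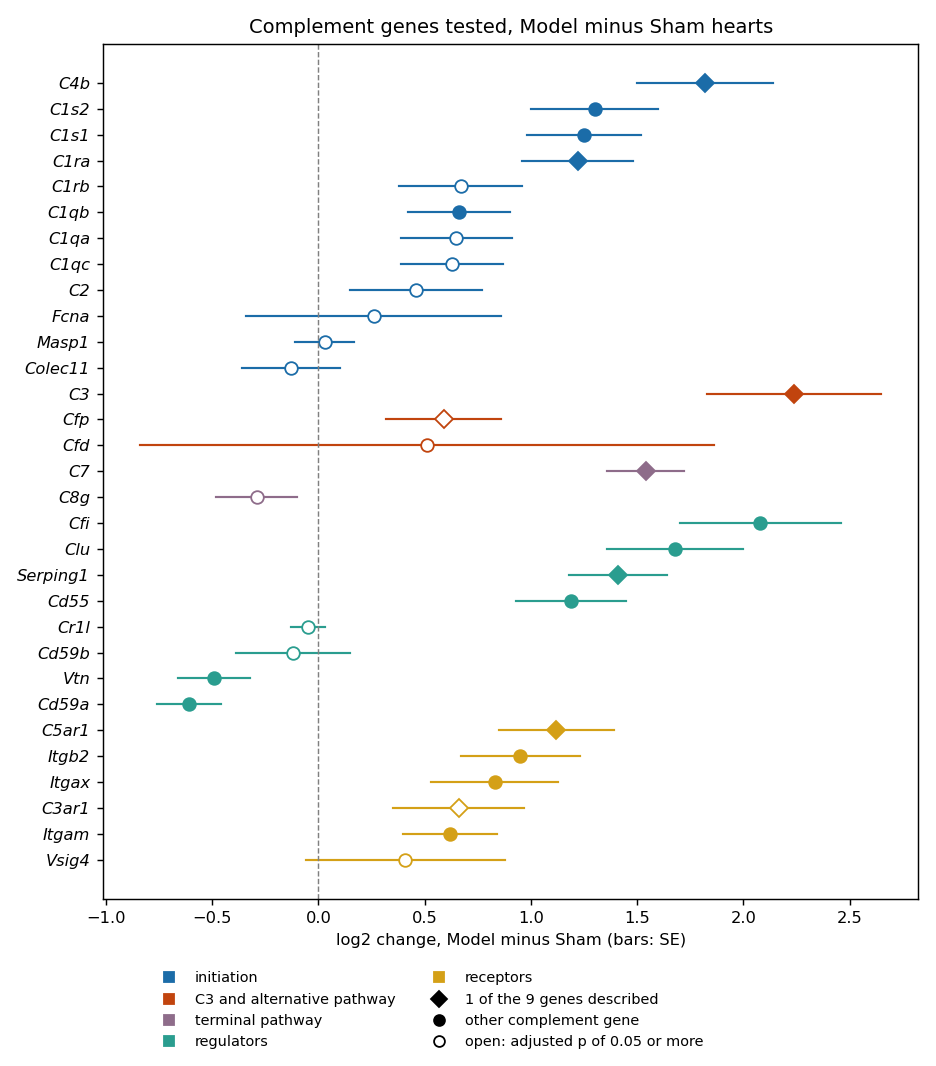
Log2 difference between Model and Sham hearts (horizontal axis, on the log2(scaled FPKM + 1) scale) of the complement genes described, grouped by role, with bars for the SE, diamonds for the members, circles for the other complement genes, and filled symbols for adjusted p under 0.05. C3 at 2.24 and Cfi at 2.08 lie farthest to the right, whereas the regulators Cd59a at -0.61 and Vtn at -0.49 lie left of 0.

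In whole hearts, fewer cells of a type and less RNA per cell cannot be told apart, and markers of several cell types differed along with the complement genes. All 7 fibroblast markers were called higher in Model than in Sham hearts, and their summed scaled FPKM was 1080.9 to 3762.3 in LQ-40, 1679.1 to 2108.1 in SQ-3, 3156.1 to 3445.6 in Model and 462.1 to 600.6 in Sham libraries. Most of the Model sum came from the collagen genes Col1a1, Col1a2 and Col3a1, with means of 876.9, 446.9 and 1119.2. These were 12.4-, 10.2- and 10.4-fold higher than in Sham hearts. Lum was 3.31-fold, Dcn 2.27-fold, Tcf21 2.03-fold and Pdgfra 1.93-fold higher. Of 7 macrophage markers, 5 were called higher and 1 lower in Model than in Sham hearts, and their sum was 695.5 to 1389 in LQ-40, 606 to 977.4 in SQ-3, 664.2 to 1000.2 in Model and 302.6 to 468.3 in Sham libraries. That list includes C1qa, which is also among the other complement genes, and which made up 118.3 to 219.5 of the sum in LQ-40, 94.7 to 141.8 in SQ-3, 142 to 174.6 in Model and 75.0 to 119.8 in Sham libraries. Most of the sum was Lyz2, at 485.4 to 1024.1 in LQ-40, 428.3 to 731.4 in SQ-3, 434.5 to 729.9 in Model and 180.5 to 297 in Sham libraries. Of 7 cardiomyocyte markers, 6 were called lower, with sums of 5810.9 to 11609.4 in LQ-40, 8724.2 to 11607.9 in SQ-3, 7174.4 to 8521.7 in Model and 13766.4 to 15748.4 in Sham libraries. Mesothelial markers, of which 4 of 7 were called higher, summed to 25.0 to 105 in LQ-40, 22.7 to 51.3 in SQ-3, 17.6 to 98.7 in Model and 3.10 to 17.3 in Sham libraries. Of 7 neutrophil markers, 4 were tested and none was called in this comparison, Mpo and Ly6g stayed under 1 scaled FPKM everywhere, and the sum reached 65.4 and 77.8 in LQ-40 libraries 1 and 3 but no more than 21.5 in any other library. Of 7 adipocyte markers, 4 were tested and 1 was called lower, while Retn and Lep stayed under 1 scaled FPKM. The 6 hepatocyte markers with a row summed to at most 1.05 scaled FPKM in any library, although the liver is the main source of plasma C3. The part of cell numbers in the complement differences was not tested.

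Ratios within a library set the complement genes against a single marker each, and they are given as values without a test. Serping1 over C1ra, the inhibitor over 1 of its targets, was 8.26 to 9.91 in LQ-40, 8.77 to 11.2 in SQ-3, 9.64 to 12.8 in Model and 9.25 to 10.8 in Sham libraries, so the groups overlapped. C3 over Pdgfra, a fibroblast receptor gene that was itself 1.93-fold higher in Model hearts, was 11.7 to 20.6 in LQ-40, 5.80 to 13.6 in SQ-3, 5.88 to 15.8 in Model and 3.28 to 6.45 in Sham libraries. All LQ-40 libraries were above the Sham range, and 1 Model and 1 SQ-3 library lay within it. C5ar1 over Csf1r, a gene of macrophages that was 2.05-fold higher in Model hearts, was 0.188 to 0.321 in LQ-40, 0.133 to 0.276 in SQ-3, 0.193 to 0.336 in Model and 0.220 to 0.264 in Sham libraries. The corresponding ratio of C3ar1 overlapped between groups in the same way. Cfp over Csf1r was 0.281 to 0.492 in LQ-40, 0.231 to 0.443 in SQ-3, 0.378 to 0.426 in Model and 0.497 to 0.623 in Sham libraries. This ratio was therefore lower in all libraries of the other groups than in the Sham libraries. Cfp was 1.5-fold higher in Model than in Sham hearts and Csf1r 2.05-fold. A gene without a difference would thus also have a lower ratio to Csf1r. How many of all tested genes had ratios to Csf1r that separate in this way was not counted.

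**Figure D3:**
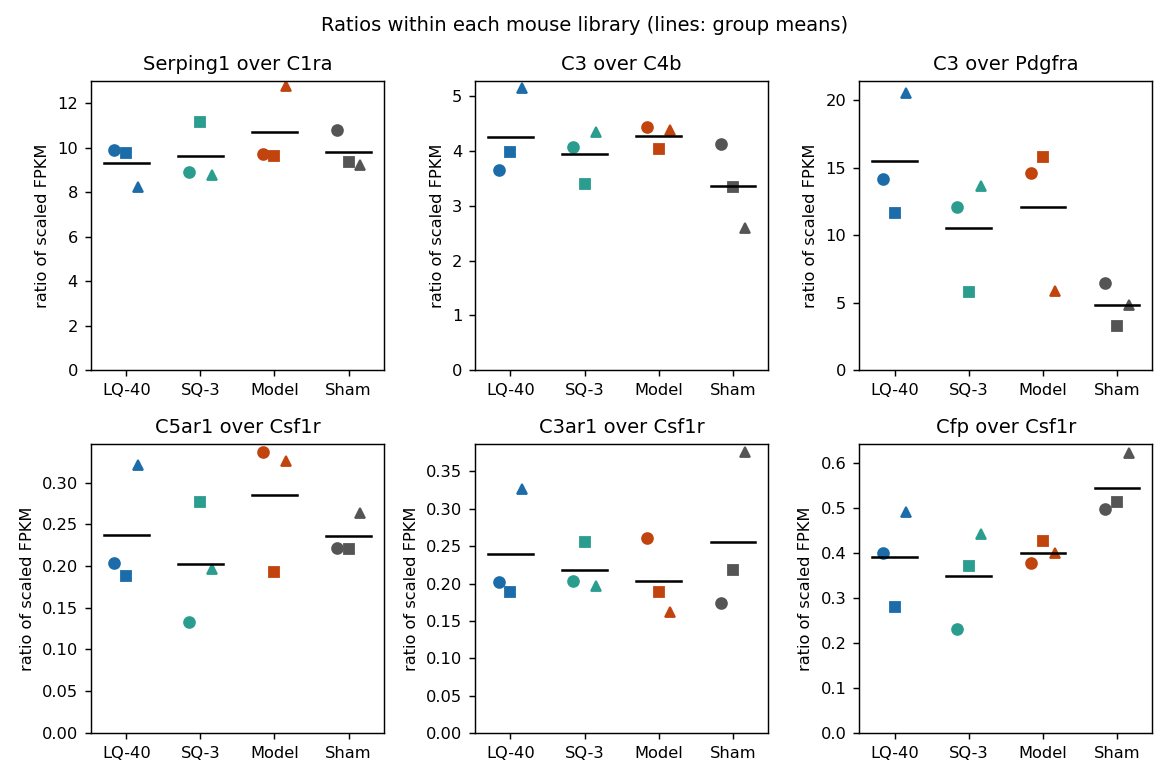
Ratio of the scaled FPKM of 2 genes within each mouse library (vertical axis, no unit, starting at 0), with marker shapes for libraries 1 to 3 and lines for group means. Serping1 over C1ra stays between 8.26 and 12.8 in all groups, and Cfp over Csf1r is highest in the Sham libraries, at 0.497 to 0.623. The divisor Csf1r is itself lowest in the Sham libraries.

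The second question was how the compound groups stood against Model hearts. None of the 8 tested members was called in LQ-40 against Model hearts, where 0.669% of all tested genes were called, and none reached an unadjusted p under 0.05. The log2 differences lay between -0.22 for C7 (95% interval -0.629 to 0.182) and 0.32 for C3ar1 (-0.376 to 1.01). For C3 the difference was 0.17 with an interval of -0.718 to 1.07. Every member's LQ-40 and Model libraries overlapped. Limma-voom on reads recovered from the FPKM also called 0 of the 8.

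In SQ-3 against Model hearts none of the 8 was called by limma or by limma-voom either, where 0.346% of all tested genes were called, and 1 had an unadjusted p under 0.05. That gene was C5ar1, which averaged 5.85 ± 1.56 scaled FPKM in SQ-3 and 9.31 ± 2.53 in Model hearts (SD, n = 3 each), with a log2 difference of -0.59 (95% interval -1.17 to -0.00381, adjusted p = 0.349). All 8 log2 differences were below 0, from -0.59 to -0.04, with a median of -0.26 against -0.01 over all tested genes. The members share these libraries and vary together (pairwise r of 0.58 to 0.99 over all mouse libraries), so these are not 8 separate observations. The share of all tested genes below 0 was not counted. C5ar1 and Serping1 had all SQ-3 libraries below all Model libraries, 2 of 8 members, where 14.3% of all tested genes were separated in that direction. Serping1 averaged 204 ± 22.0 scaled FPKM in SQ-3 and 247 ± 8.70 in Model hearts, a log2 difference of -0.28 that was not called (95% interval -0.79 to 0.227, adjusted p = 0.562). For C3 the interval of the SQ-3 difference, -1.27 to 0.52, was the widest of the members, and the C3 libraries of each of these groups spread over more than 2-fold.

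The 2 compounds were then compared directly, as LQ-40 against SQ-3 hearts. The labels give no dose, so it is not known whether doses matched. None of the 8 members was called (adjusted p = 0.9995 for each), none had an unadjusted p under 0.05, and 0.0% of all tested genes were called, while 393 of them had an unadjusted p under 0.05 and limma-voom called 0. The log2 difference was 0.55 for C3 (95% interval -0.345 to 1.44), 0.49 for C5ar1 (-0.0981 to 1.07), 0.44 for C4b (-0.273 to 1.15), 0.44 for Cfp (-0.165 to 1.05) and -0.00 for C7 (-0.41 to 0.40). C7 thus had the narrowest interval, and LQ-40 and SQ-3 libraries overlapped for every member. These intervals leave room for differences of more than 2-fold in C3, C4b, C5ar1, C3ar1 and Cfp, and a p above the threshold does not show that the compounds act alike. The comparisons of each compound with Model and with Sham share the Model and the Sham libraries.

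**Figure D4:**
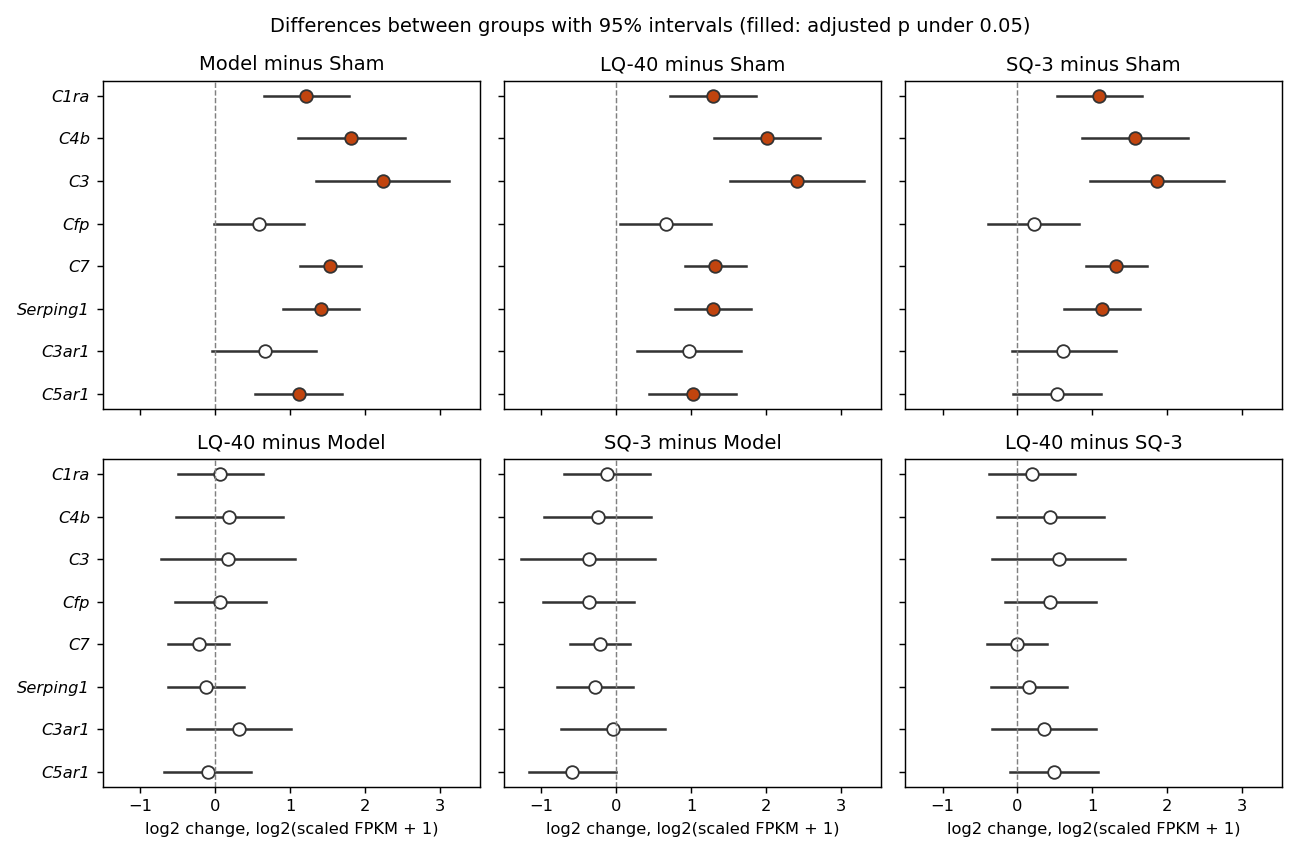
Log2 difference (horizontal axis, log2(scaled FPKM + 1) scale) with its 95% interval for the 8 tested complement genes in the 6 comparisons of mouse hearts, with filled points for adjusted p under 0.05. In the top row 6, 6 and 5 genes are filled and lie right of 0, and in the bottom row none is filled and all intervals but that of C5ar1 in SQ-3 against Model hearts reach across 0.

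The last comparisons set each compound group against Sham hearts. In LQ-40 against Sham hearts 6 of 8 members were called higher, where 15.7% of all tested genes were called and 9.83% were called higher. C3 was 5.33-fold higher (log2 2.41, SE 0.41, adjusted p = 0.00724), C4b 4.03-fold (adjusted p = 0.00618), C7 2.50-fold (adjusted p = 0.0036), C1ra and Serping1 each 2.44-fold (adjusted p = 0.0137 and 0.00894) and C5ar1 2.02-fold (adjusted p = 0.0314). C3ar1 and Cfp were not called (log2 0.97 and 0.66, adjusted p = 0.0565 and 0.113). Fitted to LQ-40 and Sham libraries alone, 3 members were called (C3, C4b and C7). Some calls changed when 1 library was left out, in fits that have fewer libraries. C5ar1, at log2 1.02 with all libraries, was no longer called without LQ-40 library 2 (log2 1.12, adjusted p = 0.071) or LQ-40 library 3 (0.73, 0.11). The same held without Sham library 1 (0.96, 0.0972) or Sham library 2 (0.96, 0.0873). C1ra was no longer called without LQ-40 library 2 (log2 1.27 against 1.29 with all, adjusted p = 0.0534). C3ar1 was called without LQ-40 library 1 (log2 1.16, adjusted p = 0.0255) or Sham library 3 (1.28, 0.0375). Among the other complement genes, 6 of 23 were called higher and 2 lower (9.83% and 5.92% of all tested genes), led by C1s1 (3.11-fold, adjusted p = 0.00707) and Cfi (adjusted p = 0.0109), with Vtn lower (log2 -0.87, adjusted p = 0.0134). Of the marker lists, 7 of 7 fibroblast, 5 of 7 macrophage, 3 of 7 mesothelial and 1 of 4 tested neutrophil markers were called higher in LQ-40 than in Sham hearts, 2 of 7 cardiomyocyte markers were called lower, and none of 4 tested adipocyte markers was called. The summed fibroblast, macrophage, mesothelial and cardiomyocyte markers did not overlap between LQ-40 and Sham libraries, whereas the neutrophil and adipocyte sums did.

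In SQ-3 against Sham hearts 5 of 8 members were called higher, where 6.68% of all tested genes were called and 4.86% were called higher. C3 was 3.64-fold higher (log2 1.87, SE 0.41, adjusted p = 0.0261), C4b 2.97-fold (adjusted p = 0.0223), C7 2.50-fold (adjusted p = 0.00334), Serping1 2.19-fold (adjusted p = 0.0217) and C1ra 2.13-fold (adjusted p = 0.0342). The libraries of these 5 genes lay above those of Sham hearts without overlap, as did those of 20.2% of all tested genes. C5ar1, C3ar1 and Cfp were not called (log2 0.53, 0.61 and 0.22, adjusted p = 0.214, 0.224 and 0.634). The count of 5 fell to 1 without SQ-3 library 1, SQ-3 library 3, Sham library 1 or Sham library 2, to 2 without Sham library 3 and to 3 without SQ-3 library 2, while C7 was called in each case. It was 1, again C7, with no filter on low values. Over the 6 fits without 1 library the log2 differences of the 5 genes stayed at or above 1.04. Of the other complement genes 2 of 23 were called higher and none lower (4.86% and 1.82% of all tested genes): Cd55 (2.04-fold, adjusted p = 0.0396) and C1s1 (2.09-fold, adjusted p = 0.0434). In SQ-3 against Sham hearts 7 of 7 fibroblast and 2 of 7 macrophage markers were called higher, 1 of 7 cardiomyocyte markers was called lower, and no mesothelial, neutrophil or adipocyte marker was called.

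Within groups, the libraries took a similar order for most members. LQ-40 library 3 was the highest LQ-40 library for 7 of the 8 tested members, and LQ-40 library 1 the lowest for 6. Model library 3 was the lowest Model library for 7 of 8, the exception being C5ar1, and SQ-3 library 3 was the highest SQ-3 library for 6. In the Sham group library 2 was lowest for 6 members and library 3 highest for 5. The summed scaled FPKM of the 9 genes was 475, 618 and 962 in LQ-40, 530.2, 457 and 606 in SQ-3, 744.5, 729 and 499 in Model, and 213, 181 and 205 in Sham libraries. In the LQ-40 group the first principal component over all tested genes fell as this sum rose, at 20.6, -16.0 and -34.3. The component was -0.682, -17.7 and -0.22 in SQ-3, -36.2, -26.3 and -31.7 in Model, and 52.5, 46.3 and 43.7 in Sham libraries. In those groups it did not take the reverse order of the sum. How many of all tested genes took these orders was not counted. By group means, collagen genes made up most of the fibroblast marker sum outside the Sham group. The fibroblast marker sum was 1080.9, 2343.1 and 3762.3 in LQ-40, 1834.9, 2108.1 and 1679.1 in SQ-3, 3445.6, 3156.1 and 3159.6 in Model, and 462.1, 600.6 and 593.2 in Sham libraries. It took the order of the summed members in the LQ-40 group, the reverse order in the SQ-3 and Sham groups, and did not set library 3 apart in the Model group. The macrophage marker sum, most of which was Lyz2, was 695.5, 1018.5 and 1389 in LQ-40, 606, 833.9 and 977.4 in SQ-3, 938.3, 1000.2 and 664.2 in Model, and 468.3, 302.6 and 386.5 in Sham libraries. It took the order of the summed members in the LQ-40 and Sham groups and was, like them, lowest in library 3 of the Model group. In the SQ-3 group both were highest in library 3, but the order of libraries 1 and 2 differed. The part of these cell types in the order of libraries was not tested.

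Over the 12 mouse libraries, which share the group differences and scaling, Pearson's r of log2(scaled FPKM + 1) ran between 0.58 for Serping1 with Cfp and 0.99 for C3 with C4b among pairs of tested members. The genes with the pattern most like C3 were C4b (r = 0.985), Csf1r (0.975) and Pygl (0.969), and those most like C4b were C3 and Csf1r (0.985 each) and C1s1 (0.974). For C1ra they were Lima1 (0.986), Gas6 (0.981) and Soat1 (0.978), and for Serping1 they were Lox (0.99), Mmp23 (0.989) and Bicc1 (0.988). C7 stood closest to Sephs1 (0.955), Dmtn (0.941) and Man1a (0.935). By rank (Spearman's rho) these 3 were less alike, at 0.650, 0.769 and 0.671, against 0.839 to 0.986 for the genes named for other members. Cfp stood closest to Saa3 (0.925), Rpl7a-ps5 (0.897) and Ubb (0.882), C3ar1 to Spi1 (0.949), Ptpro (0.946) and Edem2 (0.935), and C5ar1 to Tnfaip3 (0.962), Eml4 (0.957) and Plpp2 (0.956). These values describe likeness over 12 libraries, and for C3, C4b, C1ra, Serping1 and C5ar1 at least 100 genes had an r of 0.895 or more.

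The rat libraries, 11910160 reads for 3D and 13262387 for 2D, allowed values and counting intervals but no test, with 1 library each. The labelled cell types were checked first. Fibroblast markers summed to 2749.6 scaled FPKM in 3D and 2609.4 in 2D, macrophage markers to 21.0 in 3D and 27.4 in 2D, and 6 cardiomyocyte markers to only 10.7 in 3D and 10.1 in 2D, with Ryr2 below 0.02 in both, so defining cardiomyocyte transcripts were scarce in both libraries. Most of the fibroblast sum was Col1a1, at 1788.2 in 3D and 2006.9 in 2D. Read ratios of 3D over 2D were 3.31 for Dcn, 2.94 for Pdgfra, 2.64 for Lum and 1.64 for Col1a2. They were 0.936 for Col3a1, 0.891 for Col1a1 and 0.444 for Tcf21, so the fibroblast markers differed in direction. Markers of cell types that the labels do not name were read too: mesothelial markers summed to 198.8 in 3D and 217.9 in 2D, above the macrophage and cardiomyocyte sums, hepatocyte markers to 20.1 in 3D and 20.4 in 2D, neutrophil markers to 13.9 in 3D and 9.93 in 2D, and adipocyte markers to 1.88 in 3D and 2.83 in 2D. Msln (150.3 in 3D and 160.3 in 2D) and Krt8 (38.3 and 49.8) made up most of the mesothelial sum. Of the other mesothelial markers, Lrrn4 had 5.71 and 5.35 scaled FPKM, and Krt19 had 1 and 0 reads. Tf, at 19.4 in 3D and 19.2 in 2D, made up nearly all of the hepatocyte sum, while Alb, Apoa2 and Fgb had 0 reads in both. C3 had 6.81 scaled FPKM in 3D and 4.65 in 2D (412 and 327 reads), a depth-adjusted read ratio of 1.46 (exact 95% binomial interval 1.26 to 1.70, counting error only). C7 had 6.69 scaled FPKM in 3D and 4.31 in 2D (198 and 148 reads), a ratio of 1.55 (1.25 to 1.94). The intervals of both ratios lay above 1. Serping1 had 9.49 scaled FPKM in 3D and 4.85 in 2D (209 and 124 reads), a ratio of 1.96 (1.56 to 2.46), and Cfp had 5.28 in 3D and 5.89 in 2D (91 and 118 reads), a ratio of 0.896 (0.674 to 1.19). On the log2(scaled FPKM + 1) scale none of these 4 genes passed a 2-fold difference, which 7.47% of 13407 compared genes did. Their median log2 difference was 0.50, against 0.00 over all compared genes.

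The other rat members were near the limit of counting. C5ar1 had 5 reads in 3D and 13 in 2D, C3ar1 had 4 in 3D and 1 in 2D, and C4b had 8 in 3D and 3 in 2D. Another gene model covers nearly the whole length of rat C4b on the same strand (14369 bases), and both rat Cfb models, which overlap each other over 5862 bases, were listed at 0, so the levels of C4b and Cfb are uncertain. C1r, the rat gene for the protease whose mouse gene is C1ra, is not one of the 9 names, but it was the highest of the classical pathway genes in rat cells, at 214 scaled FPKM in 3D and 183.5 in 2D, a read ratio of 1.17 (1.13 to 1.21). The C1q gene C1qa, a macrophage transcript, had 1 read in each library. Pdgfra had 11.8 scaled FPKM in 3D and 4.01 in 2D, and Csf1r had 2.43 in 3D and 3.84 in 2D, and the part of cell makeup in the complement ratios was not tested.

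**Figure D5:**
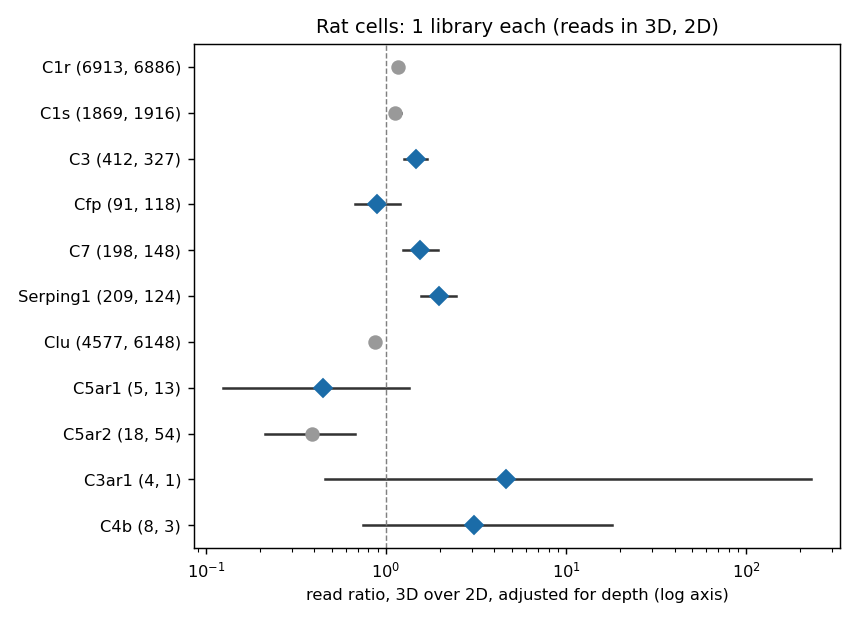
Depth-adjusted ratio of reads in the 3D library over the 2D library (horizontal log axis) of a selection of complement genes of the rat table, with exact 95% binomial intervals that cover counting error only, diamonds for members, circles for other complement genes, and the reads of 3D and then 2D beside each name. Complement genes left out include Itgb2 (ratio 2.63, interval 1.93 to 3.61) and Colec11 (0.581, 0.37 to 0.895). C3, C7 and Serping1 lie right of 1 at 1.46, 1.55 and 1.96, Cfp lies at 0.896, and the intervals of C5ar1, C3ar1 and C4b span more than a factor of 10.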

How the data were processed

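Groups came from the sample titles (mouse) and descriptions (rat). Trizol extraction, poly-T capture and both a NEB and a strand-specific dUTP library are described, per the labels' protocols. Tools were fastp, HISAT2 2.0.5 and featureCounts 1.5.0-p3, with builds mm10 and Rnor_6.0, per the submitters' processing notes. Strand setting and annotation release: not given in the sources used here. The coordinates of the 9 members matched GENCODE M21.

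The authors deposited FPKM values with gene lengths. FPKM times length was a whole multiple of 1 step for 100.0% of values in every library (tolerance 0.02 of a read), which gave whole reads. FPKM were divided by median-of-ratios factors (0.979 to 1.03 in the mouse, over the 10422 genes that reached 1 FPKM in all 12 libraries). Log2(scaled FPKM + 1) of genes that reached 1 FPKM in 3 or more libraries was tested with limma 3.58.1 (lmFit, contrasts.fit, eBayes with trend, R 4.3.3), all 12 libraries in 1 fit, two-sided, Benjamini-Hochberg adjusted, threshold 0.05. Rat genes that reached 1 FPKM in 3D or 2D were set side by side without a test. Scripts were tested on simulated data. The alternatives tried were unscaled FPKM, quantile-normalized values, 0.1 as the pseudocount, all genes unfiltered, genes with a mean of 5 FPKM or more, fits on only the 2 groups compared, the title number as a block, limma-voom on recovered reads, and leaving out each library.

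The members and lists were chosen with earlier results of these data known. By the rule for named genes, all members, up to 4 called and 2 uncalled other complement genes per comparison and the 3 genes most like each member are named; C1s1, C1s2, C1qb, C1qc, Cd59a, Vtn, C8g, Itgam, Itgax and Itgb2 in the Model comparison were named after their values were seen. A search of protein sequences was not run, as none were used here. A gene of the list of other complement genes is not reported here.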

Additional observations from a re-analysis of the deposited data

How the results depend on the processing

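In Model against Sham hearts, 6 members were called under every alternative, and a 7th joined in 2 of them, so 110 of 112 member results kept their call and direction. In LQ-40 against Sham hearts the count of 6 became 3 with only the 2 groups compared, and 4 to 7 without 1 library. In SQ-3 against Sham hearts the count of 5 became 1 with no filter and 1 to 3 without 1 library; these fits have fewer libraries, and the one with no filter adjusts over 29037 genes. C7 was called under every alternative in all 3 comparisons with Sham hearts (adjusted p at most 0.0208). No member was called under any alternative in the other mouse comparisons, and none of the compared rat members passed 2-fold on the log2(scaled FPKM + pseudocount) scale under any. With 1 added, members under 1 scaled FPKM in both libraries could not reach 2-fold on that scale; by reads the ratio of 3D over 2D was 3.1 for C4b, 4.65 for C3ar1 and 0.447 for C5ar1, each with an interval that spans 1.

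Uncalled differences changed sign when 1 library was left out. In LQ-40 against Model hearts the log2 difference ran from -0.19 to 0.42 for C3, -0.18 to 0.38 for C4b, -0.24 to 0.41 for C1ra, -0.36 to 0.18 for Serping1, -0.18 to 0.24 for Cfp and -0.39 to 0.08 for C5ar1. In LQ-40 against SQ-3 hearts it ran from -0.15 to 0.11 for C7 (0.02 with quantile normalization), -0.12 to 0.53 for C1ra and -0.08 to 0.46 for Serping1. It ran from -0.28 to 0.18 for C3ar1 in SQ-3 against Model hearts, and from -0.07 to 0.44 for Cfp in SQ-3 against Sham hearts. The cause was not tested.

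Libraries with the same title number did not deviate together (r from -0.268 to 0.219 over 18 pairs, against -0.394 to 0.389 over 36 pairs with different numbers). That gives no sign that the numbers pair libraries, but such ranges cannot exclude a pairing or a shared batch. With the replicate block the counts of called members were 6 (Model against Sham), 6 (LQ-40 against Sham), 4 (SQ-3 against Sham, where C1ra had an adjusted p of 0.0572) and 0 in the other comparisons. Over all genes, calls without 1 library ran from 3286 to 4493 in Model against Sham (5048 with all), 412 to 4369 in LQ-40 against Sham (2046), 227 to 444 in SQ-3 against Sham (868), 31 to 155 in LQ-40 against Model (87), 12 to 26 in SQ-3 against Model (45) and 0 to 1 in LQ-40 against SQ-3 (0). With only the 2 groups compared they were 230 in LQ-40 against Sham and 14 in LQ-40 against Model; with no filter 774 in LQ-40 against Sham, 262 in SQ-3 against Sham, 48 in LQ-40 against Model and 2 in LQ-40 against SQ-3; with a mean of at least 5 FPKM 3284 in Model against Sham; and with the replicate block 29 in SQ-3 against Model. The 2719 higher and 2329 lower calls in Model against Sham became 2482 and 2604 with FPKM as deposited.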

Other observations

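A pair of complement genes outside the 9 varied widely between libraries of the same group. Hc, which encodes C5, had 206 reads (2.07 scaled FPKM) in LQ-40 library 2 and 0 to 2 reads in each of the other 11 libraries. Cfd, which encodes factor D, a protease of the alternative pathway made in quantity by fat cells, had 586, 135 and 0 reads in LQ-40, 142, 21 and 23 in SQ-3, 5, 291 and 12 in Model, and 11, 36 and 16 in Sham libraries. Its 4 highest libraries thus came from 3 groups, at 9.22 to 49.1 scaled FPKM. The summed adipocyte markers, a list that includes Cfd, took the order of Cfd in the LQ-40 and Model groups but not in the SQ-3 and Sham groups. They were 208, 90.8 and 84.6 scaled FPKM in LQ-40, 100.6, 115.6 and 99.01 in SQ-3, 59.3, 122 and 64.3 in Model, and 197.1, 139.7 and 142.2 in Sham libraries. Most of this sum was Fabp4, with means of 102.4 in LQ-40, 98.9 in SQ-3, 71.6 in Model and 156.9 in Sham hearts. The sum therefore cannot show whether the scarcer adipocyte markers followed Cfd, and that was not tested. Adipoq ran from 0.09 to 5.81 scaled FPKM in LQ-40, 0.171 to 2.04 in SQ-3, 0.0421 to 3.295 in Model and 0.226 to 0.6245 in Sham libraries. Cidec ran from 0.134 to 4.87, 0.467 to 0.946, 0.0316 to 3.14 and 0.211 to 0.462 in these groups.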
